A study of Mus musculus with 23 samples.

Results

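The genes described here encode the enzymes that make serine, one-carbon units on folate, and nucleotides. They are the 35 rows of the deposited count table whose names are on a list of such enzymes, out of 49492 genes in the table. The list was chosen with earlier results of these data known. All 35 were found and all passed the filter on low counts, among 18015 genes tested. The study profiled the poly(A) RNA of CD8+ T cells from mouse spleens, in 23 libraries and 6 groups. The WT groups carried the PLPP1fl/fl genotype, in which loxP sites flank part of a membrane lipid phosphatase gene and no Cre is named. The KO groups carried Lckcre-PLPP1fl/fl, in which Cre recombinase is driven by the promoter of Lck, a kinase gene active in T cells, so both genotypes share the floxed gene. Within each genotype the cells were untreated, treated with octadecenoic acid (OA, which has a single double bond) or treated with arachidonic acid (AA, a polyunsaturated fatty acid). There were 4 libraries per group, except 3 for KO with OA. The labels give no dose, time, age, sex or strain, and leave unsaid whether each library had its own animal, so p-values here reflect library-to-library spread, which may be technical.

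Serine is made from a glycolytic intermediate, and its side chain carbon is passed to tetrahydrofolate in the cytosol and in mitochondria. The folate-bound carbon is then used to close the purine ring and to methylate deoxyuridylate. Purine and pyrimidine nucleotides both take their sugar phosphate from phosphoribosyl pyrophosphate (PRPP). Activated CD8+ T cells are known to switch these routes on before they divide, and the transcription factors MYC and ATF4 are known drivers of many of the genes. In resting T cells, salvage of ready-made bases and nucleosides covers much of the need.

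Promoter sequence was read because most of these genes moved together, and MYC and ATF4 are known to bind short motifs. RefSeq (GRCm38.p6) start sites were matched by symbol for 33 of the 35 genes, with 46 starts, and the 250 bases before each start were searched on both strands. The E-box CACGTG, the motif of MYC and related factors, was present for 5 of the 33 genes, and for 6.86% of all 27025 genes in the same table. TGATGNAA, the core of the element bound by C/EBP and ATF factors such as ATF4, was present for 1 of the 33, Prps1, and for 3.91% of all genes. The letters do not overlap one another in these windows. The windows below hold every match, at chr1:71557139-71557164 for Atic, chr5:76951089-76951114 for Paics, chr9:108560316-108560341 for Impdh2, chr11:93968026-93968114 and chr11:93968275-93968300 for Nme1, chr4:101419479-101419504 for Ak4 and chrX:140456373-140456500 for Prps1, each written 5′ to 3′ on the gene's strand with the motif in capitals. Nme1 is on the minus strand and the others on the plus strand. Exons as counted reach within 60 bases of the motif for Atic, Impdh2, Ak4, Paics and the upstream Nme1 start. For Paics the exon is of Ppat, and for Nme1 also of Gm20390. These motifs can therefore lie in exons as counted, and their windows are cut to 10 bases on each side. A match is only a description of the letters, and a start without one says nothing of what binds there.
Atic E-box: acctcggggtCACGTGgggtcgacac
Paics E-box: cctcggaaagCACGTGgagggacctg
Impdh2 E-box: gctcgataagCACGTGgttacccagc
Nme1 E-box at the downstream start: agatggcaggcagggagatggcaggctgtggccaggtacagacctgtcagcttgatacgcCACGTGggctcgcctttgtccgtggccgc
Nme1 E-box at the upstream start: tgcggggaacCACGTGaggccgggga
Ak4 E-box: ccactctgccCACGTGcggggaccgg
Prps1 C/EBP-ATF core: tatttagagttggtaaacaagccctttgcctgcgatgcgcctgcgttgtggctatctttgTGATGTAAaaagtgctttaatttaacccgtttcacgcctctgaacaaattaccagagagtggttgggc

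Total counts lay between 39265131 and 58878203 per library. Levels are in CPM, counts scaled by TMM to a common library size, given per library or as mean ± SD over a group. The 6 T cell markers Cd3e, Cd3d, Cd3g, Cd8a, Cd8b1 and Thy1 summed to 2313 to 2619.8 CPM, with Cd8a at 287 to 399 CPM, which fits the label. Of the neutrophil markers, S100a8 and Ly6g had no count in any library. Plpp1, the floxed gene, had 17 to 39 counts in WT and 15 to 37 in KO libraries, too few to check the genotype labels, which also do not say which exons are flanked. Xist, the transcript of the silenced X chromosome, lay at 784 to 884 CPM over the WT libraries and at 2.98 to 5.35 CPM over the KO libraries. A single receptor gene, Trbv12-1, took 81.6% to 86% of the counts of beta chain variable genes in WT and 3.27% to 4.32% in KO. The deletion therefore cannot be told apart from these other differences between WT and KO cells, here and in every genotype comparison below.

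Untreated KO T cells held more transcripts of almost every step from serine to nucleotides than untreated WT T cells, and either fatty acid lowered most of these transcripts in KO cells. Against no fatty acid, a single change passed in WT cells, a rise of Pfas with OA, and several other settings ended that call. The 35 genes together summed to 1939 ± 25 CPM in untreated WT (n = 4) and 2682 ± 65.7 CPM in untreated KO (n = 4). With OA the WT sum was 1919.7 ± 34.4 CPM (n = 4) and the KO sum 2319 ± 21.2 CPM (n = 3), and with AA the WT sum was 1922 ± 27.8 CPM and the KO sum 2268 ± 49.5 CPM (n = 4 each). All 11 KO libraries lay above all 12 WT libraries, and the treated KO libraries lay between untreated KO and WT. In bulk RNA, more cells in a synthetic state and more RNA per cell cannot be told apart.

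**Figure D1:**
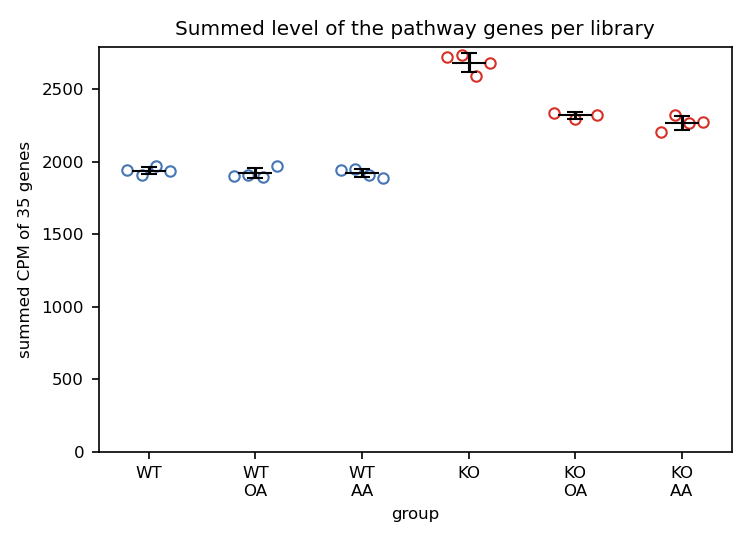
Summed CPM of the 35 genes (y axis) in each library (circles) of the 6 groups (x axis), with the mean and SD of the group in black. The WT groups sit between 1889 and 1970.3, untreated KO between 2589 and 2737, and KO with a fatty acid between 2204 and 2337.

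Gene by gene, the quasi-likelihood test of edgeR, with p-values adjusted over all tested genes by the Benjamini-Hochberg method (threshold 0.05), called 31 of the 35 higher and 2 lower in untreated KO than in untreated WT. Over all tested genes 25.6% were higher and 24.2% lower (49.8% in all), so calls were common and nearly even in direction across the transcriptome. The median log2 difference of the 35 was 0.49, against -0.003 over all genes. With AA in both genotypes, 25 genes were higher and 1 lower in KO (median 0.22, all genes -0.010), beside 21.5% higher and 21.2% lower of all genes. With OA in both, 28 were higher and 2 lower (median 0.28, all genes -0.018), beside 21.7% and 21.4% of all genes.

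Within KO, AA lowered 29 of the 35 genes and raised 1, where 15.4% of all genes were lower and 12.2% higher, and the median log2 change was -0.29 (all genes -0.014). OA lowered 25 and raised 1, where 12.7% of all genes were lower and 10.5% higher, with a median of -0.20 (all genes -0.013). The AA and OA comparisons share the untreated KO libraries, as do the genotype comparison and the tests of the difference between genotypes. Within WT, AA changed 0 of the 35 by edgeR (4 at an unadjusted p under 0.05), where 0.416% of all genes were called (0.161% higher and 0.255% lower). DESeq2 also called 0 of the 35 for AA in WT, and 129 genes in all. By edgeR, OA changed 1 in WT, Pfas, where 3.73% of all genes were called (1.23% higher). The fall with AA differed between genotypes for 21 genes and that with OA for 19, and 1 gene in each test differed the other way. Of all genes 7.98% and 6.62% differed downward and 5.97% and 5.9% upward in these tests.

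Precision in WT was enough to bound the response. For the 29 genes at 10 CPM or more in untreated WT, the 95% confidence intervals of the AA effect ran no lower than -0.21 and no higher than 0.18 on the log2 scale, so a change beyond 1.15-fold lies outside them. For OA in WT the bounds were -0.20 and 0.21. Within groups the libraries were close, and all 35 genes spread by a coefficient of variation of 1.02% (Adsl) to 20.7% (Aldh1l2) in untreated WT, with Ak4 and Aldh1l2, both near 1 CPM, the most variable.

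**Figure D2:**
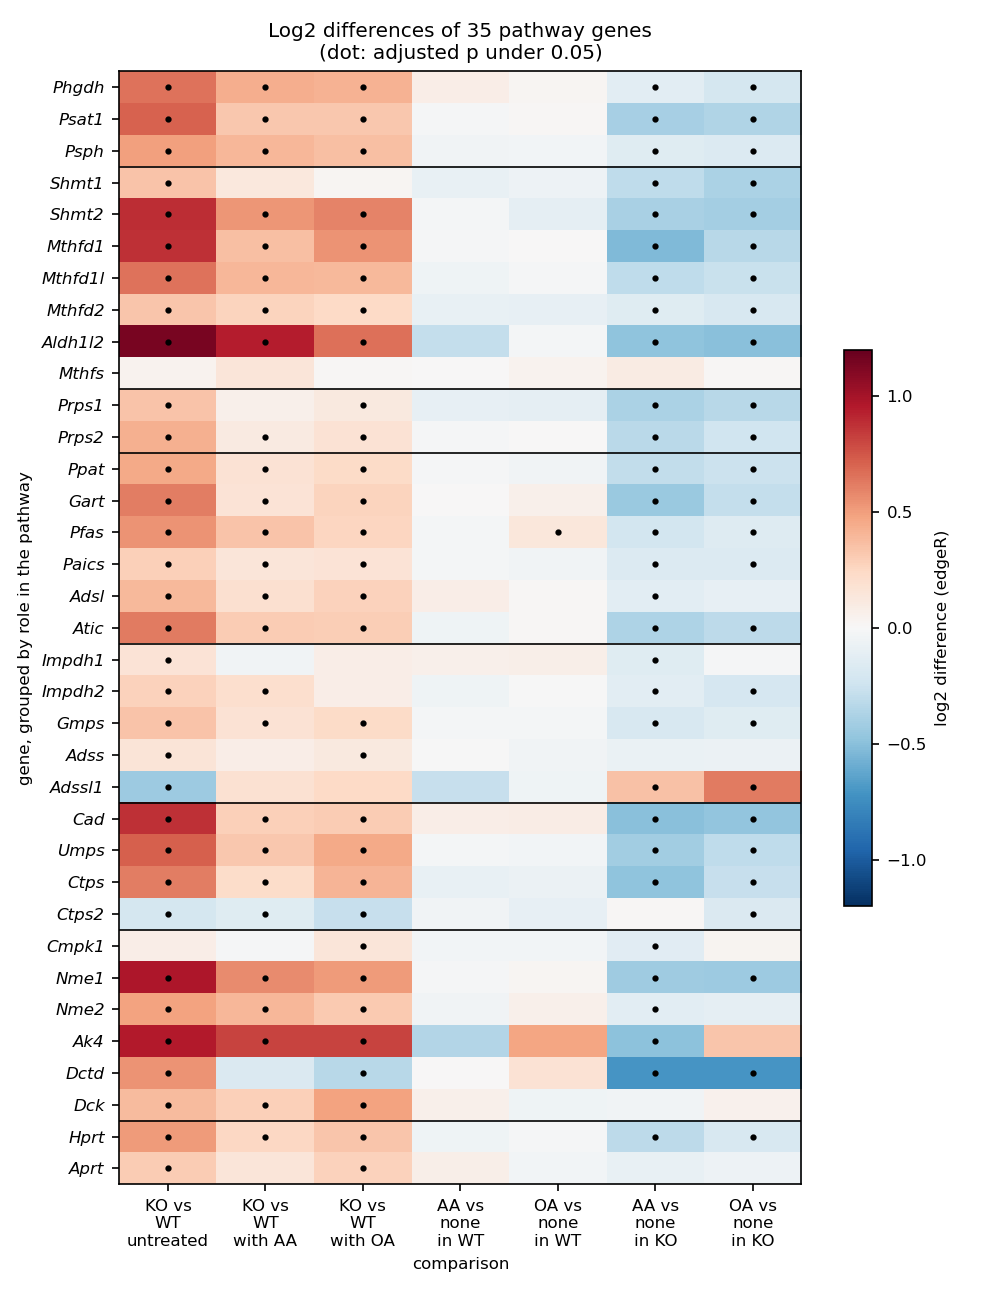
Log2 differences of the 35 genes (rows, in pathway order with lines between roles) in 7 comparisons (columns), with a dot where edgeR's adjusted p was under 0.05. The left column is red for 33 genes and the columns of AA and OA in WT are nearly white, while the columns of AA and OA in KO are blue for 32 and 30 genes.

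Serine synthesis was higher in untreated KO at all of its steps, and all of them fell with both fatty acids. Phgdh (GRCm38 chromosome 3, 98313170 to 98339990, minus strand), the dehydrogenase that commits the glycolytic intermediate to serine, lay at 167, 161, 175 and 166 CPM in the untreated WT libraries and at 262, 276, 253 and 260.0 CPM in untreated KO. The KO libraries lay above all WT libraries, a 1.57-fold difference (log2 0.65 ± 0.04 SE, edgeR adjusted p = 1.41e-17). With AA the Phgdh libraries held 226, 242, 244 and 248 CPM in KO and 179, 175, 179.9 and 175 CPM in WT, and with OA 227, 219.7 and 235 CPM in KO and 167, 174, 164 and 177 CPM in WT. The fall in KO was small, 1.09-fold with AA (adjusted p = 0.00451, edgeR) and 1.16-fold with OA (7.25e-05). The AA call ended without KO with AA replicate 1 (0.0653). Per kilobase of exon, Phgdh was the second most abundant of the 35 in untreated WT at 67.3 ± 2.46 CPM per kb, after Hprt.

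Psat1 (chromosome 19, 15904678 to 15947337, minus strand), the aminotransferase of the pathway, was also higher in KO and fell with both fatty acids. Its libraries lay at 25.9, 25.3, 29.2 and 27.8 CPM in untreated WT, 27.4, 27.8, 26.1 and 27.7 with OA and 27.9, 26.4, 25.7 and 26.6 with AA. In KO they lay at 45.8, 45.1, 39.4 and 45.8 CPM untreated, 36.6, 32.4 and 33.6 with OA and 32.9, 33.8, 33 and 33.6 with AA. No treated KO library reached an untreated one, and none came as low as WT. Psat1 was 1.63-fold higher in untreated KO (edgeR adjusted p = 2.50e-14), fell 1.32-fold with AA (6.33e-08) and 1.29-fold with OA (2.80e-06), and was still 1.25-fold and 1.25-fold above WT with AA and OA. Psph, the phosphatase that releases serine, lay at 29.1 to 32.7 CPM in untreated WT and 41.7 to 45.7 CPM in untreated KO, and in KO at 37.6 to 42.1 CPM with AA and 37.9 to 39.7 CPM with OA. Its 1.41-fold genotype difference passed (2.92e-11), while its falls of log2 -0.15 with AA (0.0137) and -0.17 with OA (0.013) each ended as calls without KO replicate 1 (0.064 and 0.0521). The AA call of Psph also ended without KO with AA replicate 1 (0.0898) or 3 (0.0557), and the OA call without KO with OA replicate 2 (0.0706). About 10.4% of its exonic bases lie under Cct6a on the other strand, so reads could be shared where strand was not used.

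Among the folate enzymes, 6 of 7 were higher in untreated KO, and the same number were lower with AA and with OA in KO, Mthfs being the exception each time. Shmt2 (chromosome 10, 127517123 to 127522444, minus strand), the mitochondrial serine hydroxymethyltransferase that takes the carbon from serine, lay at 88.3, 89.3, 98.4 and 96.4 CPM in untreated WT and 174, 181, 167 and 167 CPM in untreated KO, a 1.85-fold difference (log2 0.89 ± 0.04 SE, edgeR adjusted p = 4.51e-20). The KO libraries held 123, 136, 135 and 133 CPM with AA and 133, 128 and 129 CPM with OA, below every untreated KO library and above every WT library. WT libraries held 89.97, 95, 93.9 and 86.8 CPM with AA and 82.8, 89.7, 85.6 and 87.3 CPM with OA, and both sets overlap the untreated ones. The fall in KO was 1.31-fold with AA (8.52e-10) and 1.32-fold with OA (3.85e-09). Shmt1, the cytosolic counterpart, lay at 16.2 ± 0.901 CPM in untreated WT and 20.5 ± 1.15 CPM in untreated KO. With AA (16.6 ± 0.965 CPM) and OA (15.8 ± 0.856 CPM) its KO level came within log2 0.13 (0.01 to 0.24) and 0.02 (-0.11 to 0.15) of WT, given as the difference with its 95% confidence interval, and neither passed (0.0691 and 0.825, edgeR adjusted p). The difference with AA passed without WT with AA replicate 4 (0.0435) or KO with AA replicate 4 (0.0248).

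Mthfd1 (chromosome 12, 76255232 to 76319820, plus strand), the cytosolic enzyme that interconverts one-carbon folates and feeds purine synthesis, was lower with AA than with OA in KO. Its KO libraries lay at 154, 167, 146 and 155 CPM untreated, 125, 119.5 and 125 CPM with OA and 103, 113, 108 and 106 CPM with AA, in 3 ranges that do not overlap. In WT they lay at 83.7, 83.5, 90.03 and 81.3 CPM untreated, 85.3, 81.7, 84.9 and 88.2 with OA and 83.4, 83.5, 87.6 and 80.1 with AA. The genotype difference was 1.83-fold untreated (edgeR adjusted p = 5.42e-20), 1.45-fold with OA and 1.28-fold with AA. The fall in KO was 1.45-fold with AA (3.61e-13) and 1.26-fold with OA (1.53e-07), and the direct test of AA against OA in KO gave log2 -0.20 ± 0.04 SE (0.00101). In WT the same test gave -0.02 (0.87).

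Mthfd1l, Mthfd2 and Aldh1l2, the other mitochondrial enzymes, were higher in untreated KO and lower with both fatty acids as well. Mthfd1l (chromosome 10, 3973118 to 4167081, plus strand), which releases formate from mitochondria, lay at 72.4 ± 2.01 CPM in untreated WT and 114 ± 3.38 CPM in untreated KO, at 90.3 to 93.9 CPM in the KO libraries with AA and 93.4 to 95.2 CPM with OA. Mthfd2 (chromosome 6, 83305691 to 83325908, minus strand), the mitochondrial dehydrogenase that is high in dividing cells, differed less, 1.26-fold (55.2 ± 1.72 against 69.4 ± 3.91 CPM, edgeR adjusted p = 1.50e-08). It fell by 0.15 with AA (0.005) and 0.19 with OA (0.00118) on the log2 scale, and for neither did the test of a different change in WT pass (0.571 and 0.369, edgeR). Aldh1l2, which oxidises formyl-folate in mitochondria, had only 35 to 132 counts per library. Its 2.2-fold difference in untreated KO (2.15, 2.72, 2.86 and 1.63 against 1.1, 0.838, 1.37 and 0.999 CPM) had the highest point estimate of the 35, but 14.1% of its exonic bases lie under D10Wsu102e on the other strand, which had 1496 to 2209 counts. Its falls in KO passed with AA (0.0262) and OA (0.0416), and ended without KO replicate 2 (0.103 and 0.129) or 3 (0.134 and 0.159), among other settings listed at the end. Mthfs, which returns formyl-folate to the pool, passed in none of the comparisons and lay at 5.8 ± 0.523 CPM in untreated WT and 5.98 ± 0.503 CPM in untreated KO (log2 0.05, 95% confidence interval -0.15 to 0.24).

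PRPP, the source of the sugar phosphate of nucleotides, is made by Prps1 and Prps2, both on the X chromosome. Prps1 (chromosome X, 140456613 to 140476140, plus strand) lay at 35.3, 34.2, 38.1 and 36.6 CPM in untreated WT and 43.5, 47.2, 44.4 and 48 CPM in untreated KO, 1.27-fold higher (edgeR adjusted p = 4.18e-08). With AA the KO libraries held 36.2, 33.6, 35.6 and 35.4 CPM and with OA 37.1, 35.6 and 36.6 CPM, below untreated KO and overlapping the untreated WT libraries. The WT libraries held 34.8, 32.3, 31.9 and 35.6 CPM with AA and 33.8, 34.4, 31.5 and 34.4 CPM with OA. The remaining genotype difference did not pass with AA (log2 0.07, 95% confidence interval -0.03 to 0.16), and with OA it passed (0.0487) but ended as a call under several settings given at the end. Prps2 lay at 27.8 ± 1.22 CPM in untreated WT and 37.3 ± 0.805 CPM in untreated KO, and fell 1.25-fold with AA (5.02e-07) and 1.18-fold with OA (2.79e-04).

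All 6 enzymes of the purine ring were higher in untreated KO and all 6 fell with AA, while 5 fell with OA. Gart (chromosome 16, 91621186 to 91646952, minus strand), which carries several steps of the ring and consumes formyl-folate, lay at 59.2, 59.8, 62.5 and 60.4 CPM in untreated WT and 93.5, 97.9, 85.2 and 94.3 CPM in untreated KO. With AA its KO libraries held 65.6, 71.2, 66.8 and 69.5 CPM and with OA 76.7, 74.2 and 77 CPM, while WT held 63.9, 61.2, 59.2 and 59.1 CPM with AA and 61.2, 64.1, 61 and 66.5 CPM with OA. The KO libraries with AA overlap neither those with OA nor the untreated ones. The difference between genotypes shrank from 1.53-fold untreated to 1.2-fold with OA and 1.12-fold with AA, and the AA effect differed between genotypes by log2 -0.45 ± 0.06 SE (edgeR adjusted p = 4.45e-07). AA was below OA in KO by log2 -0.15 (0.0112), a call that ended without KO with OA replicate 3 (0.0585) or KO with AA replicate 1 (0.0507). An antisense gene, Gm15964, covers 16.9% of the exonic bases of Gart and had 247 to 439 counts.

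Atic (chromosome 1, 71557150 to 71579631, plus strand), which closes the ring with a second formyl-folate and carries the E-box printed above 7 bases before its RefSeq start, lay at 53, 48.1, 50.1 and 49.9 CPM in untreated WT and 79.9, 77.3, 75.6 and 76.9 CPM in untreated KO (1.54-fold, edgeR adjusted p = 2.76e-16). With AA the KO libraries held 57.4, 62.4, 59.5 and 60.1 CPM and with OA 63.4, 61.9 and 61.3 CPM, and WT held 45.6, 50.04, 48.4 and 50.3 CPM with AA and 49.9, 49.5, 50.8 and 53.1 CPM with OA. The groups of untreated KO, treated KO and WT did not overlap. Ppat, the committed step, and Paics, a later enzyme of the ring, lie head to head on chromosome 5 and share 272 exonic bases at their starts. Both were higher in untreated KO and fell with AA. Ppat was 1.37-fold higher in untreated KO (66.9 ± 0.94 against 91.5 ± 3.42 CPM) and fell 1.22-fold with AA, while Paics was 1.22-fold higher (116 ± 2.23 against 142 ± 3.82 CPM) and fell 1.12-fold. Their adjusted p-values by edgeR were 3.56e-12 and 1.02e-09 between genotypes and 2.73e-07 and 9.83e-05 for AA in KO. Whether the size of the change differs between these genes was not tested.

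Pfas, the amidotransferase of the ring, was the only one of the 35 called with a fatty acid against none in WT. Its WT libraries lay at 33.5, 31.4, 33 and 31.7 CPM untreated, 36.9, 35.3, 34.6 and 35.2 CPM with OA and 30.5, 31, 33.1 and 33.1 CPM with AA, so every OA library lay above every other WT library. The rise with OA was 1.1-fold (edgeR adjusted p = 0.0487) and ended as a call with RLE factors (0.0593), with the replicate block (0.0758) and with any 1 of these 8 libraries left out except WT replicate 1 (0.0542 to 0.202). In KO, Pfas went the other way, from 47.2, 46.5, 47.7 and 46.7 CPM untreated to 42.7, 43.6 and 40.8 CPM with OA and 40.3, 40.9, 40.4 and 40.1 CPM with AA, 1.11-fold (0.00644, 0.0591 without KO with OA replicate 3) and 1.16-fold lower (2.69e-05). The OA effect differed between genotypes by log2 -0.28 (7.69e-04). Adsl, a lyase used in both the ring and AMP synthesis, lay at 60.6 ± 0.617 CPM in untreated WT and 79.4 ± 2.37 CPM in untreated KO (1.31-fold, 6.24e-11). Its fall with AA passed (0.0124), except without KO with AA replicate 1 (0.133) or with only the compared groups fitted (0.0722), and its change with OA did not pass (log2 -0.10, 0.0895).

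From inosine monophosphate the route splits to guanine and adenine nucleotides, and untreated KO was higher for Impdh1, Impdh2, Gmps and Adss and lower for Adssl1. Impdh2, the main inosine monophosphate dehydrogenase of proliferating cells, lay at 98.9 ± 3.69 CPM in untreated WT and 119.9 ± 5.8 CPM in untreated KO (1.21-fold, edgeR adjusted p = 7.69e-07), and Impdh1, its relative, at 56.4 ± 2.11 and 63.1 ± 1.96 CPM (1.12-fold, 0.00157). With AA, Impdh1 in KO came to 54.5, 60.1, 54.6 and 59 CPM, which overlaps the WT libraries with AA at 58.5, 59.6, 58.2 and 58.8 CPM. With OA it was 65.8, 59.1 and 62.4 CPM in KO and 54.2, 61.8, 59.9 and 60.7 CPM in WT. The Impdh1 fall with AA passed (0.00846), except without KO with AA replicate 1 (0.0721), and its change with OA did not (0.869). Impdh2 fell 1.15-fold with OA (0.00119) and 1.09-fold with AA (0.0172), and the AA call ended with only the compared groups fitted (0.0552) or without KO replicate 4 (0.103) or KO with AA replicate 1 (0.0587), 3 (0.0569) or 4 (0.0701). Gmps, which completes guanine nucleotides, was 1.27-fold higher in untreated KO (81.4 ± 1.69 against 103 ± 3.49 CPM, 6.26e-11) and fell to 89 to 93.1 CPM with AA and 92.1 to 95.1 CPM with OA.

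The adenylosuccinate synthase genes went in opposite directions. Adss, the broadly expressed form and the most abundant of the 35 in CPM, was 1.11-fold higher in untreated KO (266 ± 6.24 against 295 ± 11.4 CPM, edgeR adjusted p = 3.20e-04) and passed with neither fatty acid in KO, except with AA without KO replicate 3 (0.0431) or KO with AA replicate 4 (0.0277). Adssl1 (chromosome 12, 112620045 to 112641354, plus strand), the isozyme best known from muscle, was 1.35-fold lower in untreated KO (0.00127), with 2.59, 2.34, 2.66 and 2.5 CPM in KO against 3.17, 3.35, 3.52 and 3.66 CPM in WT. It then rose in KO, to 3.83, 3.6 and 4.3 CPM with OA and 3.3, 2.97, 2.92 and 3.7 CPM with AA, and all treated KO libraries lay above all untreated ones. In WT it lay at 3.84, 3.17, 3.04 and 3.17 CPM with OA and 2.94, 3.1, 2.66 and 2.62 CPM with AA. The rise in KO was 1.54-fold with OA (1.18e-04) and 1.27-fold with AA (0.017), the latter lost without KO replicate 2 (0.0579) or KO with AA replicate 4 (0.0824). Its effects differed between genotypes by log2 0.67 ± 0.16 SE for OA (0.00397) and 0.62 ± 0.16 for AA (0.00532). Adssl1 was the 1 gene of the 35 to rise with a fatty acid in KO.

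**Figure D3:**
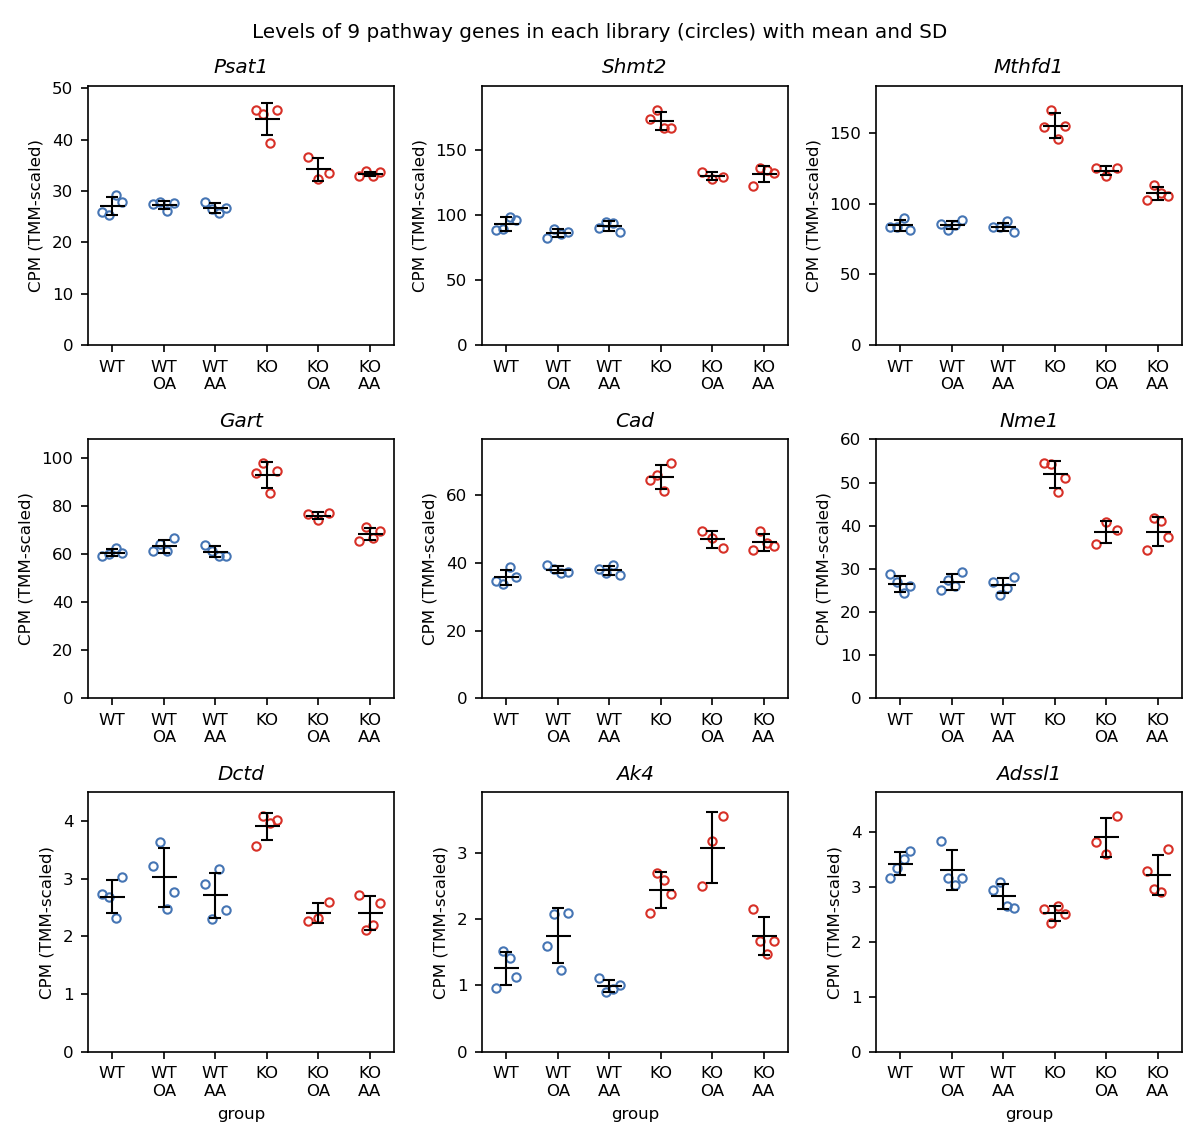
TMM-scaled CPM (y axes, from 0) of 9 of the genes in each library (circles, WT blue and KO red) of the 6 groups (x axes), with mean and SD in black. Psat1, Shmt2, Mthfd1, Gart, Cad and Nme1 are highest in untreated KO, and with either fatty acid their KO means lie between untreated KO and WT, Dctd in treated KO lies in or near the range of WT, Ak4 is lower with AA than with OA in both genotypes, and the mean of Adssl1 is lowest in untreated KO.

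Of the 4 genes of pyrimidine synthesis, 3 were higher in untreated KO and fell with both fatty acids, and Ctps2 was lower. Cad (chromosome 5, 31054780 to 31078479, plus strand), the multi-enzyme protein that starts the ring, lay at 34.7, 33.8, 38.7 and 35.8 CPM in untreated WT and 64.5, 66.1, 61.3 and 69.6 CPM in untreated KO, 1.83-fold higher (log2 0.87 ± 0.05 SE, edgeR adjusted p = 7.88e-18). With AA the KO libraries held 43.7, 49.5, 46.1 and 45 CPM and with OA 49.4, 47.3 and 44.3 CPM, while WT held 38.3, 37, 39.5 and 36.4 CPM with AA and 39.4, 38.2, 37.1 and 37.5 CPM with OA. The treated KO libraries lay between untreated KO and WT without overlap. Cad fell 1.42-fold with AA (7.27e-11) and 1.39-fold with OA (3.54e-09), and both effects differed from those in WT (log2 -0.59, 6.94e-08, and -0.57, 4.07e-07). The remaining genotype difference was 1.22-fold with AA and 1.24-fold with OA.

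Umps (chromosome 16, 33954782 to 33967038, minus strand), which completes uridylate, lay at 22.7, 21.9, 25.3 and 23.3 CPM in untreated WT, 37.2, 40.6, 37.2 and 38.4 CPM in untreated KO, 30.2, 30.6 and 32.6 CPM in KO with OA and 27.9, 30.5, 29 and 27.6 CPM in KO with AA. In WT it lay at 23.2, 23.1, 21.2 and 23.4 CPM with OA and 24.1, 22.6, 21.7 and 23.3 CPM with AA. It was 1.65-fold higher in untreated KO (edgeR adjusted p = 8.31e-15) and fell 1.33-fold with AA (2.10e-08). Ctps and Ctps2, which both make CTP, differed between genotypes in opposite directions. Ctps (chromosome 4, 120539868 to 120570276, minus strand), the form known to be needed for lymphocyte division, was 1.53-fold higher in untreated KO, at 45.4, 46.1, 44 and 44 against 29.5, 26.8, 30.4 and 30.7 CPM (1.74e-14). It lay at 37.7, 36.1 and 37.2 CPM with OA and 32.4, 30.6, 31.7 and 34 CPM with AA in KO, and AA was below OA by log2 -0.20 ± 0.05 SE (0.00225). Its WT libraries held 28.2, 26.9, 28 and 28.5 CPM with OA and 27.3, 27.3, 28.1 and 27.9 CPM with AA.

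Ctps2, on the X chromosome (chromosome X, 162901238 to 163032508, plus strand), was lower in KO under every condition, 1.15-fold untreated (edgeR adjusted p = 3.28e-05), 1.11-fold with AA (0.00252) and 1.21-fold with OA (1.46e-06). The KO libraries held 44.3, 45.1, 41.7 and 45.1 CPM untreated, 45.2, 45.6, 44.3 and 43.1 CPM with AA and 40.3, 38.1 and 38.9 CPM with OA, without overlap between OA and the others. The WT libraries held 50.5, 49.1, 54.9 and 48.6 CPM untreated, 50.3, 50.04, 48.5 and 48.2 CPM with AA and 47.8, 47.9, 46.8 and 47.3 CPM with OA, all above all KO libraries. OA lowered it in KO (1.12-fold, 0.00332), and AA was above OA there by log2 0.19 (0.00203). Per kilobase of exon, untreated WT held 10.8 ± 0.608 CPM per kb of Ctps2 and 8.85 ± 0.531 of Ctps, while untreated KO held 9.33 ± 0.34 and 13.5 ± 0.321. On this scale Ctps2 was the higher of the pair in untreated WT and the lower in untreated KO. In KO with AA the pair lay closer, at 9.44 ± 0.234 for Ctps2 and 9.7 ± 0.441 for Ctps. Without scaling by length, untreated KO held 44 ± 1.6 CPM of Ctps2 and 44.8 ± 1.07 CPM of Ctps.

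Among the kinases, Nme1 (chromosome 11, 93956979 to 93968521, minus strand), which makes nucleoside triphosphates from diphosphates, had the largest called genotype difference of the members above 10 CPM. It lay at 28.8, 26.9, 24.3 and 26 CPM in untreated WT and 54.6, 54.3, 47.9 and 51.2 CPM in untreated KO (1.96-fold, log2 0.97 ± 0.06 SE, edgeR adjusted p = 7.10e-16). With AA its KO libraries held 34.5, 41.7, 41.1 and 37.5 CPM and with OA 35.7, 40.8 and 39 CPM, and WT held 26.9, 24.1, 25.7 and 28 CPM with AA and 25, 27.3, 26.1 and 29.4 CPM with OA. The treated KO libraries lay between untreated KO and WT without overlap, 1.34-fold below untreated KO with AA (6.30e-07) and 1.35-fold with OA (3.30e-06). Nme2, the neighbour and close relative, was 1.4-fold higher in untreated KO (41.5 ± 2.25 against 58.2 ± 2.28 CPM, 1.58e-11). Its fall with AA (51.2 to 57 CPM, 0.0264) was not stable to leaving out KO replicate 1 (0.118) or KO with AA replicate 1 (0.1), 3 (0.0755) or 4 (0.0877), nor to fitting only the compared groups (0.0744). With OA, Nme2 was at 52.1 to 56.2 CPM and did not pass (0.1).

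These counts are uncertain, because Gm20390, on the same strand, covers 48.9% of the exonic bases of Nme2 and 12.5% of those of Nme1, and reads in shared exons can go to any of the 3 or to none. Gm20390 itself lay at 65 ± 3.56 CPM in untreated WT, 106 ± 4.84 in untreated KO, 88.1 ± 4.95 in KO with AA and 89.1 ± 0.56 in KO with OA. The locus as a sum of Nme1, Nme2 and Gm20390 lay at 133 ± 7.36 CPM in untreated WT and 216 ± 9.73 in untreated KO (n = 4 each). It was 179.9 ± 10.1 CPM in KO with AA (n = 4) and 182 ± 1.02 CPM in KO with OA (n = 3), the same order of untreated KO, treated KO and WT as for Nme1.

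Ak4 (chromosome 4, 101419277 to 101466995, plus strand), a mitochondrial adenylate kinase, had the largest difference between AA and OA of the 35 in both genotypes. Its WT libraries held 0.966, 1.51, 1.42 and 1.14 CPM untreated, 1.59, 2.08, 1.23 and 2.09 CPM with OA and 1.12, 0.897, 0.941 and 1.01 CPM with AA. Its KO libraries held 2.1, 2.7, 2.6 and 2.38 CPM untreated, 2.5, 3.18 and 3.56 CPM with OA and 2.16, 1.67, 1.48 and 1.67 CPM with AA. Every OA library lay above every AA library within each genotype, and AA was below OA by log2 -0.82 ± 0.18 SE in WT (edgeR adjusted p = 0.00612) and -0.82 ± 0.17 in KO (7.96e-04). Against no fatty acid, the OA values were log2 0.47 in WT (0.156) and 0.33 in KO (0.169), neither of which passed, and the AA values were -0.35 in WT (0.678), which did not pass, and -0.49 in KO (0.0221). That last call ended without KO replicate 2 (0.0704) or 3 (0.0568) or KO with AA replicate 2 (0.0613) or 3 (0.0786). The gene was 1.93-fold higher in untreated KO (1.50e-05), 1.76-fold with AA and 1.75-fold with OA, on 41 to 152 counts per library.

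Dctd (chromosome 8, 48099092 to 48153233, plus strand), the deaminase that turns deoxycytidylate into the precursor of thymidylate, had the largest fall of the 35 with either fatty acid. Its KO libraries held 3.56, 4.09, 3.96 and 4.01 CPM untreated, 2.27, 2.33 and 2.6 CPM with OA and 2.71, 2.11, 2.2 and 2.59 CPM with AA. Its WT libraries held 2.74, 2.67, 2.32 and 3.02 CPM untreated, 3.22, 3.63, 2.47 and 2.77 CPM with OA and 2.9, 2.3, 3.17 and 2.46 CPM with AA. It was 1.45-fold higher in untreated KO (edgeR adjusted p = 4.40e-04) and fell 1.63-fold with AA (3.26e-05) and 1.63-fold with OA (1.84e-04), and with OA in both genotypes it was 1.26-fold lower in KO (0.0498). That call ended under several settings given at the end, among them without WT with OA replicate 2 (0.189), and with AA it did not pass (log2 -0.17, 0.291). Both effects differed from WT, by log2 -0.71 ± 0.18 SE for AA (0.00533) and -0.88 ± 0.19 for OA (0.0015). Dck, the salvage kinase of deoxycytidine, held 28.2, 26.5, 28.5 and 33.5 CPM untreated, 29.7, 30.7 and 30.2 CPM with OA and 29.8, 29, 26.9 and 27.9 CPM with AA in KO. In WT it lay at 22.7, 22.6, 22.5 and 21.8 CPM untreated, 20.2, 22.4, 21.1 and 22.9 CPM with OA and 23, 23.6, 25.1 and 21.7 CPM with AA, below every KO library. No fatty acid change of Dck passed, with adjusted p = 0.673 for AA and 0.623 for OA in KO by edgeR.

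Cmpk1, the kinase of uridylate and cytidylate, did not pass in untreated KO (54.3 ± 2.11 CPM in WT, 57.6 ± 1.37 CPM in KO, edgeR adjusted p = 0.0614), but did without WT replicate 2 (0.0251) or KO replicate 2 (0.0459). It fell with AA in KO to 52.8, 50.4, 54 and 52.7 CPM (0.00598, 0.0645 without KO with AA replicate 2), and stood at 58.9, 57.2 and 60.3 CPM with OA, with AA below OA by log2 -0.16 (0.00403). Base salvage was also higher in untreated KO. Hprt (chromosome X, 52988137 to 53021659, plus strand), which recycles hypoxanthine and guanine and was the most abundant of the 35 per kilobase in untreated WT at 105 ± 4.38 CPM per kb, lay at 137, 133, 142 and 129 CPM in untreated WT and 197, 196, 185 and 192 CPM in untreated KO (1.42-fold, 2.46e-15). In KO it held 172, 163 and 169.8 CPM with OA and 149, 160.4, 152 and 157 CPM with AA, and in WT 134, 131, 132 and 137 CPM with OA and 132, 134, 129 and 126 CPM with AA, so that KO with AA, KO with OA and untreated KO formed 3 separate steps above WT. AA was below OA in KO by log2 -0.12 (0.0201), a call lost under several settings given at the end. Aprt, the adenine counterpart, lay at 5.81 ± 0.574 and 7.19 ± 0.811 CPM in untreated WT and KO (1.24-fold, 0.00561, 0.0547 without KO replicate 3), and passed with neither fatty acid.

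**Figure D4:**
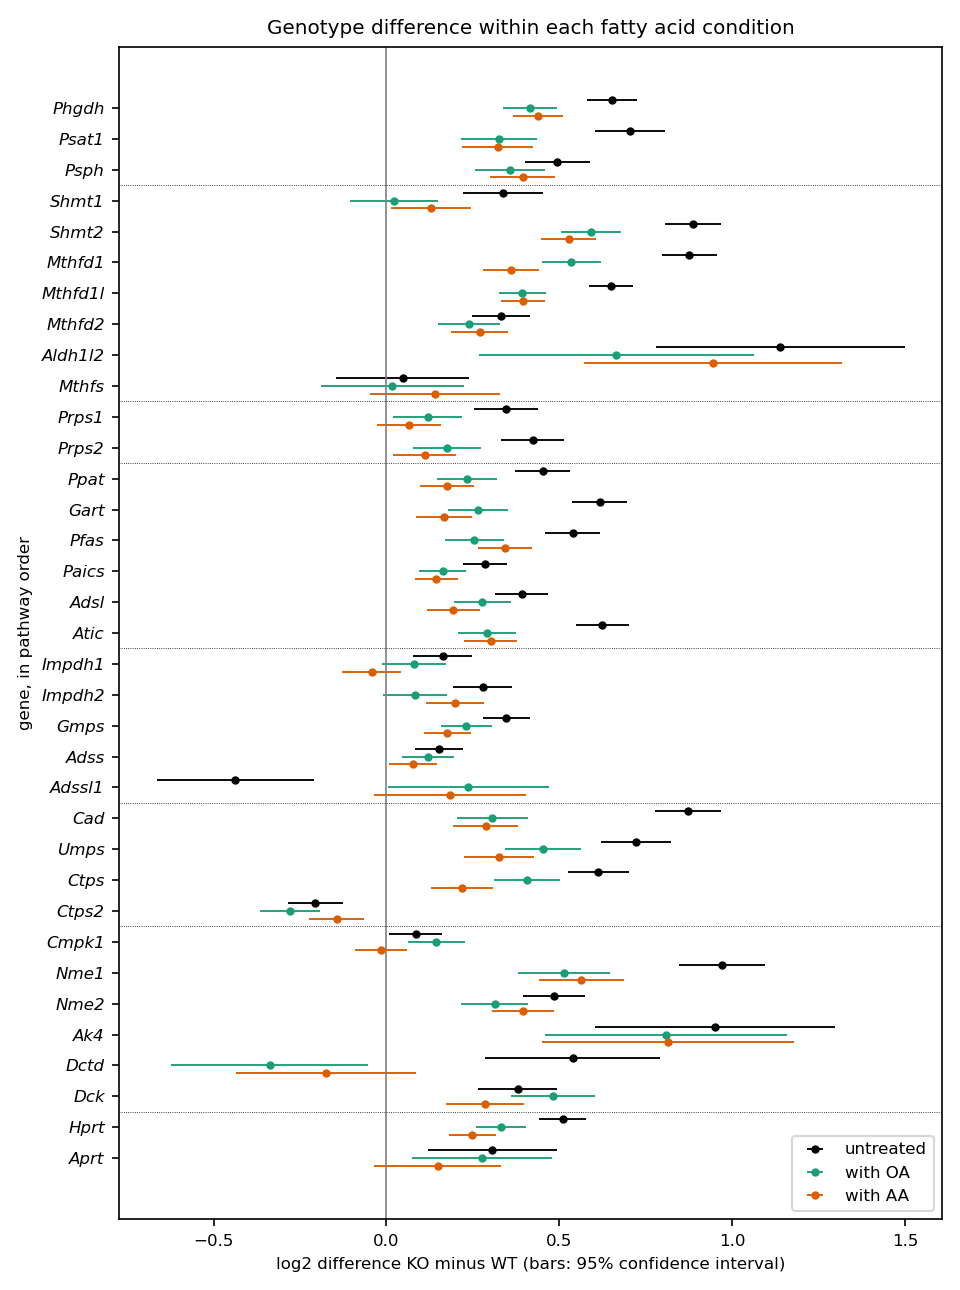
Log2 difference of KO minus WT (x axis) with its 95% confidence interval for each gene (y axis), untreated (black), with OA (green) and with AA (orange). Untreated values lie farthest to the right for most genes, from -0.44 for Adssl1 to 1.14 for Aldh1l2, and those of Prps1, Shmt1, Impdh1 and Dctd lie near or below 0 with at least 1 fatty acid.

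AA and OA were then compared directly, and most of the 35 genes gave no call. In KO, 7 of the 35 passed (20%, beside 14% of all genes, 6.73% higher and 7.3% lower with AA), namely Mthfd1, Gart, Ctps, Cmpk1, Ak4 and Hprt lower with AA and Ctps2 higher. For the 29 genes at 10 CPM or more, the 95% confidence intervals of this difference in KO lay within -0.30 to 0.27 on the log2 scale. In WT, 2 passed, Ak4 and Pfas (log2 -0.16, edgeR adjusted p = 0.0192), both lower with AA, beside 2.95% of all genes (1.95% higher and 0.999% lower). The Pfas call ended without WT with OA replicate 1 (0.0895), WT with AA replicate 1 (0.104) or 2 (0.0808), or with no filter on low counts (0.0829).

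Neighbouring steps of the pathway changed in both directions. Of 24 tested genes of the folate and methionine cycles, 9 were higher and 3 lower in untreated KO (median log2 0.06), 11 fell and 3 rose with AA in KO (median -0.15), and 10 fell and 2 rose with OA (median -0.23). In untreated KO 50% of this list was called, near the 49.8% of all genes. As shares of the list, in the same order of comparisons, 37.5%, 12.5% and 8.33% were higher (all genes 25.6%, 12.2% and 10.5%) and 12.5%, 45.8% and 41.7% lower (all genes 24.2%, 15.4% and 12.7%). Tyms, which makes thymidylate from folate-bound carbon, was 1.59-fold higher in untreated KO (48.9 ± 0.705 against 77.7 ± 4.26 CPM, edgeR adjusted p = 5.68e-17) and fell 1.23-fold with OA (8.54e-07). Sfxn1, the mitochondrial serine importer, fell 1.29-fold with AA (5.29e-09) and 1.29-fold with OA (5.07e-08). Amt, of the glycine cleavage system, rose with both AA (1.37-fold, 0.00169) and OA (1.3-fold, 0.0169) in KO.

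Of 19 tested genes of deoxynucleotide synthesis and the remaining pyrimidine steps, 10 were higher and 4 lower in untreated KO (median 0.34), 9 fell and 1 rose with AA in KO (median -0.18), and 9 fell and 2 rose with OA (median -0.15, with 7 called in all without KO with OA replicate 3). As shares of the list, in the same order of comparisons, 52.6%, 5.26% and 10.5% were higher (all genes 25.6%, 12.2% and 10.5%) and 21.1%, 47.4% and 47.4% lower (all genes 24.2%, 15.4% and 12.7%). The ribonucleotide reductase subunits Rrm2 and Rrm1, which are also S phase genes, were 1.55-fold and 1.55-fold higher in untreated KO (edgeR adjusted p = 5.89e-19 and 4.09e-18), and their part in the differences of the 35 genes was not tested. Tk2, the mitochondrial thymidine kinase, was lower in untreated KO (log2 -0.41, 1.56e-07). Rrm2b, the p53-induced subunit that serves non-dividing cells, rose 1.33-fold with OA in KO (2.51e-07). Of 16 tested genes of nucleotide breakdown, 8 were higher and 4 lower in untreated KO (median 0.09), 7 fell and 2 rose with AA in KO (median -0.15) and 8 fell and 1 rose with OA (median -0.19). As shares of the list, in the same order of comparisons, 50%, 12.5% and 6.25% were higher (all genes 25.6%, 12.2% and 10.5%) and 25%, 43.8% and 50% lower (all genes 24.2%, 15.4% and 12.7%). Samhd1, which degrades deoxynucleotides, was 1.67-fold lower in untreated KO (847 ± 9.68 against 508 ± 3.73 CPM, 2.31e-22), and Xdh, an oxidase of purine breakdown, was 1.32-fold higher (1.65e-10). Xdh fell 1.3-fold with AA and 1.45-fold with OA in KO, and Samhd1 rose 1.12-fold with OA (5.46e-05).

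Of the transcripts for factors known to drive these genes, Myc fell with AA in KO and Atf4 passed in neither the untreated genotype comparison nor with a fatty acid in KO. Of the 10 tested genes of this list, 5 were higher and 0 lower in untreated KO, 3 rose and 3 fell with AA in KO, and 2 rose and 1 fell with OA. As shares of the list, in the same order of comparisons, 50%, 30% and 20% were higher (all genes 25.6%, 12.2% and 10.5%) and 0%, 30% and 10% lower (all genes 24.2%, 15.4% and 12.7%). Myc lay at 43 ± 2.26 CPM in untreated WT and 46.2 ± 1.77 CPM in untreated KO (1.07-fold, edgeR adjusted p = 0.0386), and Atf4 at 92.9 ± 3.91 and 98 ± 4.66 CPM (0.0783). In KO, Myc fell 1.39-fold with AA to 33.3 ± 1.8 CPM (6.11e-11) and lay at 43.8 ± 1.02 CPM with OA, where the difference from untreated did not pass (0.22). AA was below OA for Myc in KO, by log2 -0.39 ± 0.05 SE (9.35e-08). For Atf4 the adjusted p in KO was 0.0997 with AA and 0.673 with OA. Atf5, a relative of Atf4, was 1.5-fold higher in untreated KO (3.62e-08) and fell 1.36-fold with AA (1.25e-05) and 1.24-fold with OA (0.00442), while Ddit3, which encodes the stress factor CHOP, rose 1.36-fold with AA (1.33e-10) and 1.28-fold with OA (1.27e-07). Of the 10 tested genes of the integrated stress response, 6 were higher in untreated KO, 3 rose and 3 fell with AA in KO, and 1 rose and 3 fell with OA. As shares of the list, in the same order of comparisons, 60%, 30% and 10% were higher (all genes 25.6%, 12.2% and 10.5%) and 0%, 30% and 30% lower (all genes 24.2%, 15.4% and 12.7%). Asns, asparagine synthetase, was 2.03-fold higher in untreated KO (1.13e-16) and fell 1.28-fold with AA and 1.3-fold with OA, as Phgdh and Psat1 did. Slc3a2, an amino acid transporter chain, rose 1.72-fold with AA (1.65e-18) and 1.22-fold with OA (5.68e-07) in KO.

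Markers of other cells also differed between groups. The CD4 T cell list (Cd4, Cd40lg and Foxp3, none at 0) summed to 22.7 to 24.9 CPM in untreated WT and 15.1 to 16.4 CPM in untreated KO, 16.1 to 19 CPM in KO with AA and 14.8 to 16.3 CPM in KO with OA. Most of each sum was Foxp3, at 12.2 to 22.5 CPM over all libraries. Cd4 itself lay at 1.49 to 2.79 CPM and Cd40lg at 0.143 to 0.927 CPM, so the sums mainly follow a single gene. The platelet list (Pf4 and Itga2b) summed to 8.02 to 9.59 CPM in untreated WT, 3.11 to 4.22 CPM in untreated KO, 5.4 to 7.09 CPM in KO with AA and 4.86 to 6.32 CPM in KO with OA. WT libraries with a fatty acid lay at 22.5 to 25.2 CPM for the CD4 list and 9.3 to 11.1 CPM for the platelet list. The macrophage and monocyte list (Lyz2, Csf1r, Adgre1 and Cd68) summed to 6.18 to 8.4 CPM over the WT libraries and 5.4 to 7.46 CPM over the KO libraries. The NK cell list (Ncr1 and Klrb1c) went the other way, at 0.115 to 0.405 CPM over the WT libraries, 0.411 to 0.836 CPM in untreated KO, 0.285 to 0.684 CPM in KO with AA and 0.344 to 0.568 CPM in KO with OA. Klrb1c, its tested gene, was higher in untreated KO by log2 1.33 (edgeR adjusted p = 0.00932), and its values of -0.61 with AA and -0.49 with OA in KO did not pass, an order of groups like that of the 35 genes at a level below 1 CPM. Hbb-bs, a haemoglobin gene of red cells, was lower in untreated KO (log2 -2.04, edgeR adjusted p = 0.00911), with no more than 14 counts in any library. The part of these cells in the differences of the 35 genes was not tested.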

How the data were processed

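The series measured polyadenylated RNA of CD8+ T cells by RNA-seq, with libraries from a stranded mRNA kit per the labels' protocols. The values used are the raw counts per gene that the authors deposited. Per the submitters' processing notes, reads were trimmed with Trimmomatic 0.36 and counted on GRCm38 with featureCounts of Subread 1.5.1. How reads were aligned, which annotation was counted and whether strand and read pairs were taken into account is not given in the sources used here. Of counts from 1 to 19, 66.5% to 70.7% per library were even numbers, as happens where each mate of a read pair is counted on its own. Exons of other genes overlap those of 13 of the 35 genes, and reads could be shared there where strand was ignored. For Mthfs, Pfas, Nme1 and Nme2 the overlapping gene is on the same strand, so use of strand would not separate them. Gene lengths are those deposited in the same table, as summed exon bases.

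Columns were matched to samples by name. Genes were kept by edgeR's filterByExpr (minimum count 10, minimum total 15), which left 18015 genes with 99.964% of counts. A quasi-likelihood model was fitted in R 4.3.3 with edgeR 4.0.16, on all 23 libraries with TMM factors (0.961 to 1.03) and 1 mean per group, and 11 comparisons were contrasts of it. Benjamini-Hochberg adjustment ran over all tested genes of 1 comparison, and later p-values in brackets come from the same test. The common biological coefficient of variation was 4.97%. Any pair of libraries within a group differed by more than sampling noise (chi-square per degree of freedom at least 3.25). The model was also run on simulated data in which few genes changed, and only in KO with AA. That setting is simpler than these data, so the run does not give the error rate of the calls here.

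The 35 genes and the other lists were chosen with earlier results of these data known. All 35 are described. Library values are given in full, or as the lowest and highest library or mean ± SD for those that changed less, and from other lists at most 2 genes per direction and comparison are named, those with the smallest adjusted p, plus Myc and Atf4 throughout, which were added for the motifs searched. Alternatives were DESeq2 1.42.0, upper quartile or RLE factors, no filter on low counts, a stricter one (1 CPM in 4 libraries), a fit of only the compared groups, a block for the replicate number, and each library left out. Applying them to the 5 added lists was decided after seeing the data.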

Additional observations from a re-analysis of the deposited data

Results flagged for a closer look

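A single library stood far from the rest of its group, by Dixon's test at the 95% level on CPM, for 8 of 175 gene and group pairs with 4 libraries, where chance gives about 8.75 for 1 in 20. Psat1 in KO replicate 3 lay at 39.4 CPM, below the nearest of the others at 45.1 CPM. Mthfd2 in KO replicate 1 lay at 75.2 CPM, above the nearest of the others at 68 CPM. Ppat in KO with AA replicate 2 lay at 80.03 CPM, above the nearest of the others at 73.6 CPM. Impdh2 in WT with OA replicate 4 lay at 108 CPM, above the nearest of the others at 96.4 CPM. Adssl1 in WT with OA replicate 1 lay at 3.84 CPM, above the nearest of the others at 3.17 CPM. Umps in WT with OA replicate 3 lay at 21.2 CPM, below the nearest of the others at 23.1 CPM. Nme2 in WT with AA replicate 1 lay at 41.3 CPM, above the nearest of the others at 40.3 CPM. Nme2 in KO replicate 1 lay at 61.5 CPM, above the nearest of the others at 57.5 CPM.

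The AA effect (KO change minus WT change, edgeR adjusted p under 0.05) differed between genotypes for 22 genes. Among serine and folate genes the log2 difference was -0.21 for Phgdh, -0.38 for Psat1, -0.36 for Shmt2, -0.52 for Mthfd1 and -0.26 for Mthfd1l. Among PRPP and purine genes the log2 difference was -0.28 for Prps1, -0.31 for Prps2, -0.28 for Ppat, -0.45 for Gart, -0.20 for Pfas, -0.14 for Paics, -0.20 for Adsl, -0.32 for Atic, -0.20 for Impdh1, -0.17 for Gmps and 0.62 for Adssl1. Among pyrimidine, kinase and salvage genes the log2 difference was -0.59 for Cad, -0.40 for Umps, -0.39 for Ctps, -0.41 for Nme1, -0.71 for Dctd and -0.26 for Hprt. The OA effect differed for 20 genes. For serine and folate genes the log2 value was -0.24 for Phgdh, -0.38 for Psat1, -0.32 for Shmt1, -0.30 for Shmt2, -0.34 for Mthfd1 and -0.26 for Mthfd1l. For PRPP and purine genes the log2 value was -0.23 for Prps1, -0.25 for Prps2, -0.22 for Ppat, -0.35 for Gart, -0.28 for Pfas, -0.33 for Atic, -0.20 for Impdh2 and 0.67 for Adssl1. For pyrimidine, kinase and salvage genes the log2 value was -0.57 for Cad, -0.27 for Umps, -0.21 for Ctps, -0.46 for Nme1, -0.88 for Dctd and -0.18 for Hprt. Both tests use the untreated libraries of both genotypes, and Adssl1 is the 1 gene with a positive difference in each. Some of these calls ended when 1 library was left out. For the AA effect these were Paics without WT replicate 2 or 4 or WT with AA replicate 1 or 2 or 3 or KO replicate 4 or KO with AA replicate 1 or 4 (edgeR adjusted p 0.053 to 0.106), Pfas without WT replicate 4 or WT with AA replicate 3 or 4 (edgeR adjusted p 0.0582 to 0.0699), Impdh1 without WT replicate 4 or WT with AA replicate 4 or KO with AA replicate 1 (edgeR adjusted p 0.0506 to 0.0729), Gmps without WT with AA replicate 1 (edgeR adjusted p 0.0797) and Adsl without KO with AA replicate 1 (edgeR adjusted p 0.0561). For the OA effect these were Prps1 without WT replicate 2 or WT with OA replicate 2 or 4 or KO with OA replicate 2 (edgeR adjusted p 0.0567 to 0.0665), Impdh2 without WT replicate 2 or 4 or WT with OA replicate 4 or KO replicate 4 or KO with OA replicate 1 or 2 or 3 (edgeR adjusted p 0.0526 to 0.146), Ctps without WT replicate 2 or WT with OA replicate 1 or 4 or KO replicate 2 or KO with OA replicate 2 (edgeR adjusted p 0.0579 to 0.0921), Hprt without WT replicate 4 or KO with OA replicate 2 (edgeR adjusted p 0.0583 to 0.0625) and Shmt1 without KO with OA replicate 2 (edgeR adjusted p 0.051).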

How the results depend on the processing

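Over all alternatives no called log2 difference of the 35 genes changed sign. Outside the leave-outs, 2654 gene results kept their side of the threshold, 36 lost the call and 5 gained it. Leaving out 1 library kept 3378, lost 105 and gained 17. The number of the 35 genes called stayed within 1.5 times except for OA in WT, where the 1 call (Pfas) became 0 with RLE factors, upper quartile factors, no filter on low counts, the replicate block and only the groups compared, and for AA against OA in WT, where 2 became 1 with no filter. The causes were not tested. With 1 library left out, the counts ran from 32 to 34 for untreated KO against WT, 25 to 27 with AA, 27 to 30 with OA, 0 to 0 for AA in WT, 0 to 1 for OA in WT, 23 to 29 for AA in KO, 24 to 26 for OA in KO, 1 to 2 for AA against OA in WT, 5 to 9 in KO, 19 to 22 for the AA interaction and 15 to 21 for the OA interaction.

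Calls that several settings ended were these, with edgeR adjusted p. Dctd with OA in KO against WT gave 0.0501 with RLE factors, 0.0809 with no filter on low counts, 0.0718 with the replicate block, 0.0557 with only the groups compared, 0.103 without WT with OA replicate 1, 0.189 without WT with OA replicate 2, 0.152 without KO with OA replicate 1, 0.131 without KO with OA replicate 2, 0.0503 without KO with OA replicate 3. Prps1 in the same comparison gave 0.101 with upper quartile factors, 0.139 with no filter on low counts, 0.078 with the stricter filter, 0.0524 with only the groups compared, 0.0728 without WT with OA replicate 1, 0.0564 without WT with OA replicate 2, 0.164 without WT with OA replicate 3, 0.0532 without WT with OA replicate 4, 0.146 without KO with OA replicate 1, 0.0535 without KO with OA replicate 2, 0.104 without KO with OA replicate 3. Prps2 with AA in KO against WT gave 0.106 with upper quartile factors, 0.139 with no filter on low counts, 0.0664 with the stricter filter, 0.053 with the replicate block, 0.0683 with only the groups compared, 0.0715 without WT with AA replicate 1, 0.107 without WT with AA replicate 3, 0.0911 without WT with AA replicate 4, 0.14 without KO with AA replicate 1, 0.137 without KO with AA replicate 2. Hprt for AA against OA in KO gave 0.0834 with no filter on low counts, 0.071 with only the groups compared, 0.108 without KO with OA replicate 1, 0.0843 without KO with OA replicate 3, 0.0887 without KO with AA replicate 1, 0.0542 without KO with AA replicate 3. Aldh1l2 gave 0.0526 with only the groups compared, 0.103 without KO replicate 2, 0.134 without KO replicate 3, 0.052 without KO with AA replicate 1, 0.104 without KO with AA replicate 4 for AA in KO and 0.0637 with no filter on low counts, 0.0564 with only the groups compared, 0.129 without KO replicate 2, 0.159 without KO replicate 3, 0.138 without KO with OA replicate 1, 0.0527 without KO with OA replicate 2, 0.123 without KO with OA replicate 3 for OA in KO. With OA in KO against WT, Aprt gave 0.0532 without WT with OA replicate 1, 0.324 without KO with OA replicate 1 and Adss gave 0.0563 without KO with OA replicate 2. Calls gained beside those named above were Adss with AA in KO against WT (0.0434 with DESeq2, 0.0405 without WT with AA replicate 2, 0.0243 without KO with AA replicate 2), Adssl1 (0.0341 without WT with OA replicate 1) and Impdh2 (0.0285 without WT with OA replicate 4) with OA in KO against WT, Impdh1 (0.047 with upper quartile factors, 0.0438 with the stricter filter, 0.0479 with DESeq2, 0.0286 without KO with OA replicate 2, 0.0345 without KO with AA replicate 2, 0.037 without KO with AA replicate 4), Phgdh (0.0434 without KO with AA replicate 1) and Adssl1 (0.0436 without KO with AA replicate 4) for AA against OA in KO, and the OA interaction of Paics (0.0474 with the stricter filter, 0.0386 without KO replicate 3) and Nme2 (0.048 without WT with OA replicate 3).

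Replicate numbers are shared by the labels of all groups. Deviations of same-numbered libraries correlated at -0.0375 to 0.11, and those of other pairs across groups at -0.0864 to 0.0685. Of 23 libraries, 6 correlated best with their own number. These correlations cannot show whether same-numbered libraries shared an animal or a batch, so the main fit did not use the number. With the replicate block the counts of called genes were 33 for KO vs WT untreated, 25 for KO vs WT with AA, 29 for KO vs WT with OA, 0 for AA vs none in WT, 0 for OA vs none in WT, 30 for AA vs none in KO, 26 for OA vs none in KO, 2 for AA vs OA in WT, 7 for AA vs OA in KO, 22 for genotype difference of AA effect and 19 for genotype difference of OA effect. Upper quartile factors moved the share of higher calls over all genes from 38.7% to 28.2% for AA in WT and from 47.1% to 57.7% for the OA interaction. Genes near 1 CPM (Ak4, Aldh1l2) and near 3 CPM (Dctd, Adssl1) have the widest intervals at this depth.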
